A study of Mus musculus with 6 samples.

Results

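The comparison described here set small intestinal organoids given 0.5 µg/ml doxycycline for 3 days against organoids given none. Organoids are gel-embedded epithelial cultures; these came from mice aged 4 to 8 weeks that were Tg/Tg for Rosa26-rtTA and also Tg/Tg for Col1A1-TetO-OSKM, and the untreated controls carry both transgenes as well. The agent switches on a cassette of the reprogramming factors Oct4 (gene Pou5f1), Sox2, Klf4 and Myc at the Col1a1 locus wherever the transactivator at Rosa26 is made. Each side held 2 libraries of poly-A RNA, so the comparison uses 4 of the 6 libraries of the series; the other 2, at 0.1 µg/ml, entered only the estimate of the spread. No library came from organoids given doxycycline without the cassette, so effects of the agent itself and of the factors cannot be told apart. The labels call the libraries biological replicates without saying whether they came from separate mice, organoid lines or cultures. The p-values therefore measure only the spread between these libraries, which may be technical. Of the 55416 gene identifiers in the tables, 16975 passed the filter on low counts and were tested.

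The small intestinal epithelium renews itself from crypt base stem cells, whose offspring become absorptive enterocytes or one of the secretory types. These are mucus-making goblet cells, defensin-making Paneth cells, hormone-making enteroendocrine cells and chemosensory tuft cells. Transcription factors of the CDX, HNF4 and GATA families keep this tissue intestinal. The induced factors are known for turning differentiated cells into pluripotent ones over a longer course. OCT4 and SOX2 bind octamer and SOX motifs, while KLF4 and MYC act at GC-rich boxes and E-boxes. Stratified epithelia, such as those of the skin and oesophagus, use another set of surface proteins, among them small proline-rich proteins and their own keratins.

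Levels are given as TPM, the share of a transcript in a library after correction for length, with the values of the 2 control libraries followed by those of the 2 treated ones. Fold changes and tests come from the counts, by edgeR's quasi-likelihood test with Benjamini-Hochberg adjustment over all genes tested. A gene passed at an adjusted p of 0.05 with no fold threshold, and errors of log2 values are standard errors (SE). Control libraries held 48.3 and 48.4 units of 1e+06 counts, and treated ones 45.3 and 53.8. Genes with a mean TPM of at least 50, the average of both group means, are called well expressed here. There were 2308 of them, and they held 84.7% of all TPM in control and 84.8% at 0.5 µg/ml.

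Many genes differed between the groups, and the abundant ones by less. Over all genes tested, 67.5% passed the test, with 34.4% higher and 33.1% lower at 0.5 µg/ml (5839 and 5626 genes). Among the well expressed genes 73.7% passed, with 42.2% higher and 31.5% lower (975 and 726 genes). In 1700 of these 1701 the CPM (counts scaled to a common library total) of the 2 groups did not overlap, and mt-Atp8, described below, was the exception. With 2 libraries a side, passing the test nearly requires such a gap, so this count adds no support to the calls. These splits depend on the scaling. With upper quartile scaling they were 5121 and 6592 over all genes and 825 and 953 among the well expressed, and with limma on log2(TPM + 1) they were 3565 and 4883, and 767 and 859. Upper quartile scaling moved the median log2 fold change by -0.09, which bears on lists of small changes. A change of at least 2-fold was found in 185 well expressed genes that rose and 120 that fell. The median absolute log2 fold change was 1.00 for genes under 1 TPM and 0.31 for genes from 50 to 100 TPM. It was 0.16 for the 215 genes from 500 TPM upward, which held 59.6% of TPM in both groups. These medians take in genes not past the test, and counting noise raises them at low TPM. Counts of list members below are read against these shares of all genes. Lists with many genes near 0 in control lean to higher counts, because the low-count filter keeps such genes only where libraries given doxycycline are higher.

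**Figure D1:**
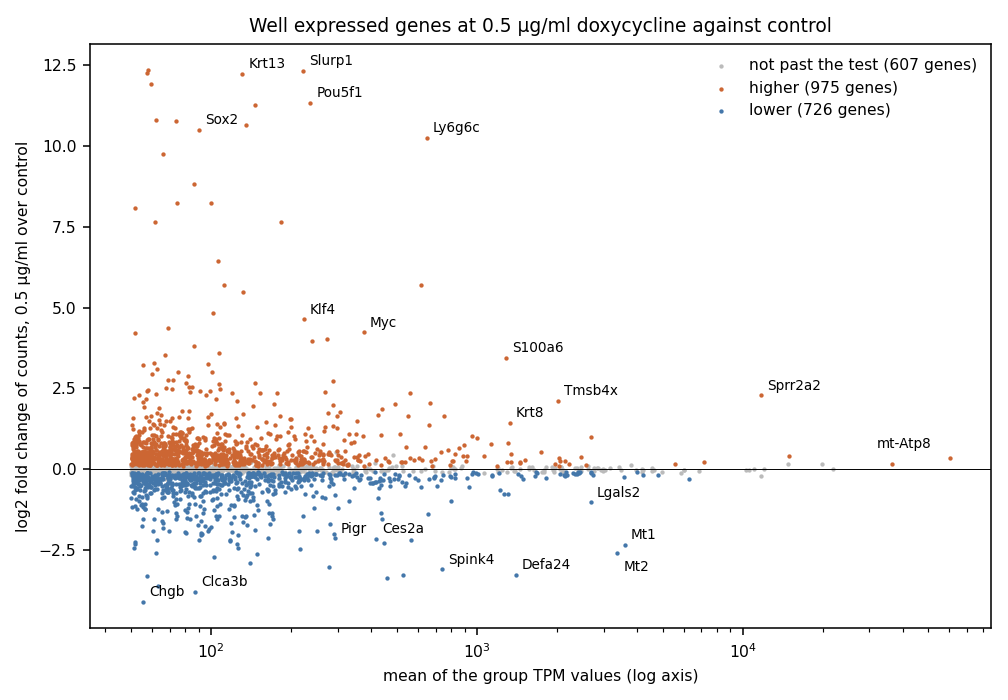
Each point is 1 of the 2308 well expressed genes, placed by its mean TPM (x, log axis) and its log2 fold change from counts (y). Orange points were higher (975), blue points lower (726) and grey points not past the test (607); Sprr2a2, Tmsb4x, S100a6, Mt1, Mt2 and Defa24 moved far at high abundance.

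Another measure of the change is the part of the pool that would have to pass from falling to rising genes to turn a control library into a treated one. It was 12.6 to 14.4% of all TPM, against 3.06% between the 2 control libraries and 4.78% between the 2 treated ones. Between the treated libraries the most abundant gene differed: mt-Atp8, a mitochondrially encoded ATP synthase subunit, stood at 51995 and 53687 TPM in control and 81612 and 54264 TPM at 0.5 µg/ml. Its gain in mean TPM was the largest of any gene, but treated replicate 1 alone was high. The call of mt-Atp8 (adjusted p = 0.0432) was lost without it (0.519) and without control replicate 1 (0.255). Without the mitochondrially encoded genes the displaced share was 14.3 to 14.5% between groups, 2.95% in control and 3.05% at 0.5 µg/ml. Over all genes, mt-Atp8 included, the 15 largest gains made up 37.6% of all gain. The 15 largest losses made up 20.8% of all loss. Mitochondrially encoded genes held 15.5% of all gain. The named genes plotted by gain and loss are another set, picked with the groups apart, and these shares are not theirs.

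**Figure D2:**
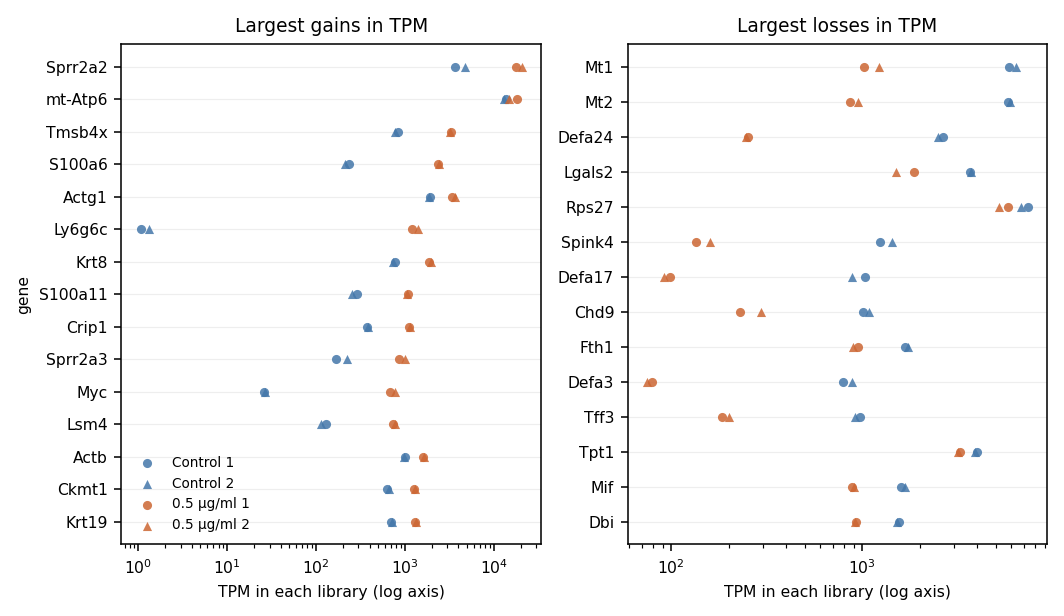
TPM in each library (x, log axis) for the 15 named genes with the largest gain (left) and those with the largest loss (right) in TPM, of which 1 is not shown; circles and triangles are replicates 1 and 2, blue is control and orange 0.5 µg/ml. Genes were picked with the CPM of the 2 groups apart, so their separation is no result. The margin is wide in Ly6g6c among the gains and in Defa3, Defa17, Defa24 and Spink4 among the losses.

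The factor genes check the labels. Pou5f1 stood at 0.32 and 0.14 TPM in control and 458 and 488 TPM at 0.5 µg/ml, and Sox2 at 0.06 and 0.2 TPM in control and 168 and 192 TPM at 0.5 µg/ml. Klf4 and Myc, which the untreated epithelium also expresses, went from 13.7 and 11.9 to 429.5 and 438 TPM and from 26.3 and 26.6 to 678 and 777 TPM. All 4 were high in both treated libraries and low in both controls, and counts per gene do not separate the cassette from the endogenous genes. For Klf4 and Myc the number of counts behind 1 TPM also differed between groups. In Myc it was 1.71 and 1.64 CPM per TPM in control and 1.17 and 1.13 at 0.5 µg/ml, so its TPM ratio exceeds its count fold.

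Among genes whose groups did not overlap in CPM, the largest gain in the pool was that of a cornified envelope gene. Sprr2a2 encodes a small proline-rich protein that is cross-linked under the membrane of stratified cells and is also made by stressed gut epithelium. It stood at 3659 and 4769.6 TPM in control and 17808 and 20648 TPM at 0.5 µg/ml (log2 fold change 2.28, SE 0.1, adjusted p = 3.76e-08). Both treated libraries held several times the control level. Its near-identical copy Sprr2a3 went from 168 and 220.1 to 851 and 1013 TPM, and the division of reads among the Sprr2a genes is uncertain.

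Of 24 tested genes of the squamous and stratified list, 21 were higher and 1 was lower. The median log2 fold change of the list was 3.61, against -0.00 over all genes tested. The list holds Sprr2a3 but not Sprr2a2, whose TPM is several times that of the whole list. The list's share of TPM, of which Sprr2a3 is the largest part, went from 0.042 ± 0.004% to 0.216 ± 0.014% (SD, n = 2). Krt13, a keratin of oesophageal and oral lining, went from 0.03 and 0.08 to 252 and 272 TPM. Cnfn (cornifelin, of the cornified envelope) went from 0.4 and 0.71 to 163 and 133 TPM. Sfn, the stratifin 14-3-3 protein of squamous cells, was already expressed in control and rose 5.16-fold. Krt4, the partner of Krt13, was the exception and fell from 0.29 and 0.3 to 0.03 and 0.02 TPM. Trp63, the master regulator of stratified epithelia, was not tested, with at most 0.01 TPM in any of the 4 libraries.

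Provisional (Gm and Rik) symbols aside, the 12 well expressed genes with the highest folds were all close to silent in control. In each of them both treated libraries were above 100 TPM and both controls below 2 TPM. These levels are largely set by the selection and are no separate result. A gene close to silent in control counts as well expressed only if its treated level is high. Ranking by fold also favours genes that are low in control. Slurp1, a secreted Ly6-family protein of skin and oesophagus, stood at 0.02 and 0.12 TPM in control and 419 and 469 TPM at 0.5 µg/ml. Ly6g6c, another member of that family, went from 1.06 and 1.32 to 1193 and 1402 TPM and so joined the genes with the largest gain in share. Aldh3a1, an aldehyde dehydrogenase abundant in cornea, stood at 0.02 and 0.03 TPM in control and 108 and 122 TPM at 0.5 µg/ml. With 3 counts in control its count ratio was 5368 (exact 95% interval 1836 to 26032, counting error only). The others were Krt13, Pou5f1, Sox2, Dkkl1, Mal, Fam25c, Spink2, Fetub and Ptgs1. Mal, a membrane-raft protein, went from 0.09 and 0.17 to 291 and 297 TPM, and Fetub (fetuin B, a protease inhibitor) from 0.14 and 0.21 to 261 and 279 TPM. Dkkl1 had 2 control counts and a count ratio of 4399 (1217 to 36329). The same ratio was 1907 (652 to 9251) for Spink2, with 3 control counts, and 2231 (400.1 to 88176) for Fam25c, with 1.

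Calcium-binding annexins and S100 proteins rose in most of their members. Of 21 tested, 17 were higher and 4 lower (median log2 fold change 1.59). Their summed share rose 2.73 times, from 0.247 ± 0.0034% to 0.674 ± 0.018% of TPM. S100a6 (calcyclin) stood at 235 and 212 TPM in control and 2324 and 2399 TPM at 0.5 µg/ml (log2 fold change 3.44, SE 0.063, adjusted p = 9.88e-11). S100a11 went from 290.1 and 253 to 1075 and 1047 TPM. Anxa2, which links membranes to actin together with S100a10, went from 258 and 296 to 789 and 854 TPM, and S100a10 from 399 and 384 to 891 and 979.8 TPM. The members that fell were Anxa4 (2.57-fold), Anxa11 (1.65-fold), Anxa13 (3.75-fold) and S100g. S100g is calbindin-D9k, the calcium carrier of enterocytes and a known target of the vitamin D receptor, and it fell from 190.2 and 221 to 41.8 and 52.5 TPM.

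**Figure D3:**
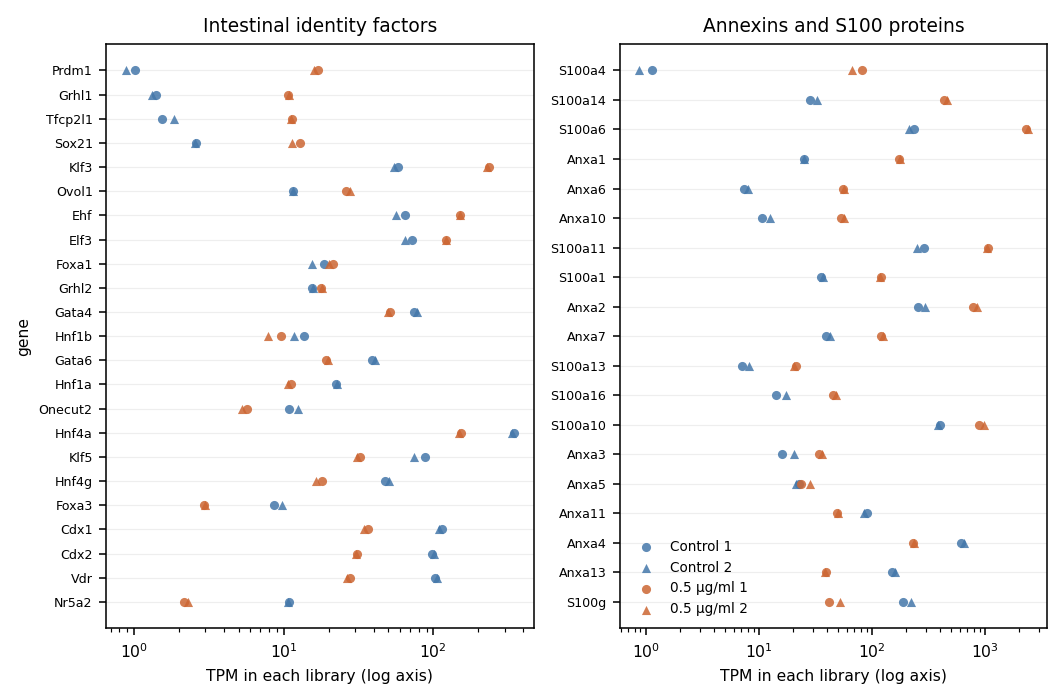
TPM in each library (x, log axis) of list members past the test with a mean of at least 5 TPM, ordered by log2 fold change, for the intestinal identity transcription factors (left) and the annexins and S100 proteins (right). Cdx1, Cdx2, Hnf4a and Vdr sit lower at 0.5 µg/ml and Klf3, Ehf and Elf3 higher, and on the right Anxa11, Anxa4, Anxa13 and S100g sit lower.

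Actin and its partners took a larger share of the pool. In the actin cytoskeleton list 19 of 29 genes were higher and 4 lower, and the share went from 0.954 ± 0.0065% to 1.59 ± 0.044%. Tmsb4x (thymosin beta 4, which holds actin monomers) stood at 838 and 778 TPM in control and 3266 and 3232 TPM at 0.5 µg/ml (log2 fold change 2.10, SE 0.051, adjusted p = 6.31e-10). The cytoplasmic actin Actg1 went from 1908 and 1874 to 3347 and 3666 TPM, and Actb from 1007 and 986 to 1604 and 1656 TPM. Profilin 1 (Pfn1), which feeds monomers to growing filaments, rose 1.70-fold. The 4 that fell bind or load filaments. They were the alpha-actinin Actn1 (3.50-fold), the calponin Cnn3 (3.12-fold), vinculin (Vcl, 1.12-fold) and the non-muscle myosin Myh9 (1.10-fold). The call of Myh9 was lost without control replicate 1 (adjusted p = 0.0547). Crip1, a LIM-domain protein outside the list, was also among the largest gains and went from 378 and 382 to 1103 and 1137 TPM.

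The simple keratins did not move together. Krt8 rose from 764 and 742 to 1866 and 1949 TPM and Krt19 from 701 and 721 to 1283 and 1315 TPM. Krt18, the usual partner of Krt8, fell from 360.2 and 330.5 to 175 and 178 TPM (log2 fold change -0.87, SE 0.056, adjusted p = 4.56e-07). Of the sugar-binding galectins of the gut surface, Lgals2 fell from 3651 and 3699 to 1872 and 1501 TPM and Lgals4 rose from 1422 and 1497 to 2019 and 2046 TPM.

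Of 25 tight junction and desmosome genes 17 were higher and 5 lower. The barrier claudin Cldn4 rose from 166 and 128 to 443 and 486 TPM. The desmosome genes Jup (plakoglobin) and Perp rose 2.96-fold and 2.18-fold. The pore-forming claudins of the gut, Cldn2 and Cldn15, fell 3.98-fold and 2.15-fold, and the other 3 that fell were Cldn7, Cldn8 and Marveld2. Integrin and matrix genes gave 13 higher and 10 lower of 27. Itgb4, the hemidesmosome integrin, rose from 27.3 and 29.01 to 136 and 141 TPM, while its partner Itga6 fell 1.34-fold. The laminin chain Lamb3 fell 2.32-fold. Secreted and lysosomal protease genes were mixed, 11 higher and 14 lower of 28. Cst3 (cystatin C) and Ctsd (cathepsin D) rose 3.31-fold and 2.44-fold, and the membrane protease Mmp14 fell 5.81-fold.

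The largest losses were 2 metallothioneins, small cysteine-rich proteins that bind zinc and copper and whose genes are switched on by the metal-sensing factor MTF1. Mt1 stood at 5887 and 6338 TPM in control and 1019 and 1219.5 TPM at 0.5 µg/ml (log2 fold change -2.35, SE 0.077, adjusted p = 4.18e-09). Mt2 stood at 5755 and 5960.2 TPM in control and 858 and 947 TPM at 0.5 µg/ml (log2 fold change -2.61, SE 0.052, adjusted p = 1.62e-10). Both controls were high and both treated libraries low. The metal list as a whole (6 higher and 10 lower of 17) went from 1.63 ± 0.059% to 0.570 ± 0.023% of TPM. The zinc importer Slc39a5 fell from 98.4 and 111 to 20.9 and 20.5 TPM, whereas the importers Slc39a4 and Slc39a14 rose 1.75-fold and 1.47-fold. Of the iron store genes, Fth1 (ferritin heavy chain) fell from 1662 and 1734 to 943 and 893 TPM and Ftl1 (light chain) rose from 1986 and 2052 to 2229.8 and 2299 TPM.

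The promoters of Mt1 and Mt2 are shown because these genes lie near each other and fell together; they and the metal-core search were chosen after the values were seen. Each window runs from 250 bases before to 50 bases after the annotated start (RefSeq, GRCm38.p6). Capitals mark the core of the metal response element, TGCACNC or TGCGCNC on either strand. Mt1 at chr8:94178839-94179138 (+ strand) holds 3 cores and Mt2 at chr8:94172368-94172667 (+ strand) holds 4:
Mt1: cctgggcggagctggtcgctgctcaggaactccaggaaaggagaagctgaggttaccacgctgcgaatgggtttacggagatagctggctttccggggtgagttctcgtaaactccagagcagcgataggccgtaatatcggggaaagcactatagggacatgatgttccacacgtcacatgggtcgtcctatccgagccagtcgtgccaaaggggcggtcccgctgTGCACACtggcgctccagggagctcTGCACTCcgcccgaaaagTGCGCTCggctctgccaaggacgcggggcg
Mt2: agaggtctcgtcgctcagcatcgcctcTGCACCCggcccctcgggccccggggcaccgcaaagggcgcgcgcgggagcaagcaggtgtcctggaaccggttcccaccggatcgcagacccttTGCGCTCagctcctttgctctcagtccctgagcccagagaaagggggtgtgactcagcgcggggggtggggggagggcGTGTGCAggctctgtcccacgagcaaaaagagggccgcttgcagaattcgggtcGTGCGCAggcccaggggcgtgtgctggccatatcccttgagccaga
A count of 3 or more cores was found in 3.67% of the 11459 tested genes with such a window, in 3.52% of those higher and in 3.95% of those lower.

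Of the named genes in the classes of largest gain, loss or fold, 32 of 48 had a promoter window and 2 held the octamer ATGCAAAT. These are printed because OCT4, which binds the octamer, is an induced factor. Capitals mark the match, in Tmsb4x as its reverse complement from base 259 of the window and in Clca3b from base 175. Tmsb4x, at chrX:167209169-167209468 (- strand), rose, and Clca3b, at chr3:144849253-144849552 (- strand), fell:
Tmsb4x: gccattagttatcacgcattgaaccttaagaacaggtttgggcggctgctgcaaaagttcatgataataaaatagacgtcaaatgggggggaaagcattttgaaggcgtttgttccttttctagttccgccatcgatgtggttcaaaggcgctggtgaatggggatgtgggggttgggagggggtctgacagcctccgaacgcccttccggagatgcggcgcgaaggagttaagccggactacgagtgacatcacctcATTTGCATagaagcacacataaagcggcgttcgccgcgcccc
Clca3b: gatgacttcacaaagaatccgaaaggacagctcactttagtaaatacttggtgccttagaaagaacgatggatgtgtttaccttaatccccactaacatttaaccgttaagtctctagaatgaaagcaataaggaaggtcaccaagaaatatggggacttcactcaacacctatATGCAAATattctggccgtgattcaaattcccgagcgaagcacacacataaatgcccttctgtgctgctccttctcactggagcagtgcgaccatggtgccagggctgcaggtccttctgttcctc
Across tested genes with a window the octamer was found in 1.73%, in 2.08% of those higher and in 1.52% of those lower. The E-box CACGTG was found in 11.3%, 11.4% and 11.3% in the same order, and the KLF-type box CCACACCC in 4.79%, 5.44% and 4.70%, each on both strands. Among well expressed genes that changed at least 2-fold and had a window, the octamer was found in 2 of 136 higher (1.47%) and 3 of 89 lower (3.37%). The E-box was found in 18 (13.2%) and 6 (6.74%) of these genes, and the KLF-type box in 12 (8.82%) and 7 (7.87%). Among all well expressed genes past the test the E-box shares were closer, 13.9% of those higher and 12.1% of those lower. The 2-fold sets had a mean of 1.37 (higher) and 1.15 (lower) windows per gene, and more windows give more room for a match. A match in these letters is a description and no sign of binding.

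Products of the secretory lineages were mostly lower. In bulk RNA, fewer cells of a type and less RNA per cell cannot be told apart. Of 19 tested Paneth genes 15 were lower and 2 higher, and the list's share fell 5.90 times, from 0.486 ± 0.029% to 0.0824 ± 0.0037%. The alpha-defensins, antimicrobial peptides of Paneth granules, stood among the largest losses. Defa24 stood at 2646 and 2486 TPM in control and 253 and 245 TPM at 0.5 µg/ml, Defa17 went from 1033 and 887 to 97.9 and 91.4 TPM and Defa3 from 792 and 887 to 79.02 and 74.4 TPM. Defensin genes share near-identical copies, so the split among them is uncertain, although all 3 fell. Lysozyme (Lyz1) fell 7.55-fold and the lectin Itln1 8.28-fold. Nupr1, a stress-response cofactor, rose from 118 and 135 to 194 and 256 TPM. Pnliprp2, a relative of pancreatic lipase, rose 1.42-fold, a call lost without treated replicate 2 (adjusted p = 0.151).

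Goblet cell genes were mostly lower (14 of 19, with 3 higher), and their share went from 0.305 ± 0.015% to 0.0548 ± 0.0039%. Spink4, a trypsin inhibitor secreted with mucus, stood at 1231 and 1437 TPM in control and 134 and 159 TPM at 0.5 µg/ml. Tff3, the trefoil peptide of mucus repair, stood at 967 and 909.7 TPM in control and 185 and 199.9 TPM at 0.5 µg/ml. Both controls lay far above both treated libraries in each. The mucus component Fcgbp fell 4.03-fold and the mucin-folding enzyme Agr2 5.44-fold. Clca1, Galnt12 and Bcas1 rose, all at low levels, to at most 11.3 TPM.

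In the enteroendocrine list 27 of 29 fell, the largest share of lower calls among the 52 program lists. Its share of TPM went from 0.0596 ± 0.0067% to 0.00868 ± 4.9e-05%. The granule protein Chgb fell from 89.8 and 121 to 4.99 and 6.29 TPM, cholecystokinin (Cck) 12.8-fold and ghrelin (Ghrl) 10.98-fold. Only Pcsk1n and Gch1 rose, to at most 11.1 TPM. Crypt base stem cell genes fell in 15 of 19. Clca3b, a chloride channel regulator, fell from 175 and 153 to 10.2 and 11.6 TPM and the secreted matrix protein Smoc2 from 112 and 96.97 to 9.18 and 10.5 TPM. Olfm4 fell from 105 and 52.2 to 3.82 and 4.63 TPM, and the controls differed between themselves in it. Ascl2, a stem cell transcription factor, rose 1.64-fold. Outside these lists, the mucosal scavenger receptor Dmbt1 fell 12.3-fold and AC158975.2, a gene with no established name, 6.64-fold.

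Tuft cell genes rose in part. Of 13 tested 8 were higher and 2 lower. Avil (advillin) went from 0.39 and 0.78 to 197 and 202 TPM, and Ptgs1, the cyclooxygenase 1 gene, from 0.14 and 0.14 to 119 and 144 TPM. Cd24a, a surface marker also found on stem and Paneth cells, rose 2.25-fold. It held 57.2% of the list's TPM, averaged over the 4 libraries. Trpm5, the taste-transduction channel that defines tuft cells, fell from 0.45 and 0.76 to 0.08 and 0.27 TPM, and the taste receptor Tas1r3 from 0.54 and 0.68 to 0.26 and 0.32 TPM. A further 8 entries were not tested, among them Gnat3 and Chat at 0 TPM in all 4 libraries.

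Enterocyte genes of digestion and absorption were mostly lower. Of 18 brush border hydrolases 11 were lower and the other 7 did not pass the test. Sucrase-isomaltase (Sis) fell 1.33-fold, maltase-glucoamylase (Mgam) 2.32-fold and the peptidase Anpep from 36.03 and 38.8 to 5.83 and 9.20 TPM. The call of Sis (adjusted p = 0.0113) was lost without control replicate 2 (0.0519) and without treated replicate 2 (0.0516). Of 25 lipid absorption genes 20 were lower, and their share went from 0.328 ± 0.053% to 0.181 ± 0.0074%. The fatty acid carrier Fabp1 stood at 885 and 1294 TPM in control and 514 and 516 TPM at 0.5 µg/ml, and Fabp2 went from 292 and 368 to 107 and 118 TPM. In both genes the controls differed from each other, yet each lay above both treated libraries. Agpat2, an enzyme of glyceride synthesis, was the 1 that rose, 1.90-fold.

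Of 38 xenobiotic and bile acid genes 24 were lower and 8 higher. The carboxylesterase Ces2a fell from 619.9 and 767 to 142 and 148 TPM and the glutathione transferase Gstm1 1.72-fold, while the retinal dehydrogenase Aldh1a1 rose 3.23-fold. Nutrient transporters gave 5 higher and 9 lower of 20. The glucose carrier Slc5a1 fell 1.45-fold and the amino acid carrier Slc3a1 2.99-fold. Of those that rose, the riboflavin carrier Slc52a3 had at most 28.3 TPM, and Slc15a1, Slc19a3, Slc28a1 and Slc28a2 had at most 4.95 TPM.

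Genes of the microvillus scaffold went both ways, 9 higher and 6 lower of 18. Villin (Vil1), which bundles the actin core, rose from 177 and 189.6 to 270.4 and 282 TPM, and ezrin (Ezr), which ties it to the membrane, from 92.8 and 96.8 to 148 and 159 TPM. The brush border myosin Myo1a and the ezrin partner Slc9a3r1 rose 2.34-fold and 2.62-fold. The intermicrovillar adhesion genes Cdhr2 and Cdhr5 and their partner Calml4 fell 1.43-fold, 1.27-fold and 2.42-fold. The list's median log2 fold change was 0.37, and -0.01 with limma on log2(TPM + 1).

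**Figure D4:**
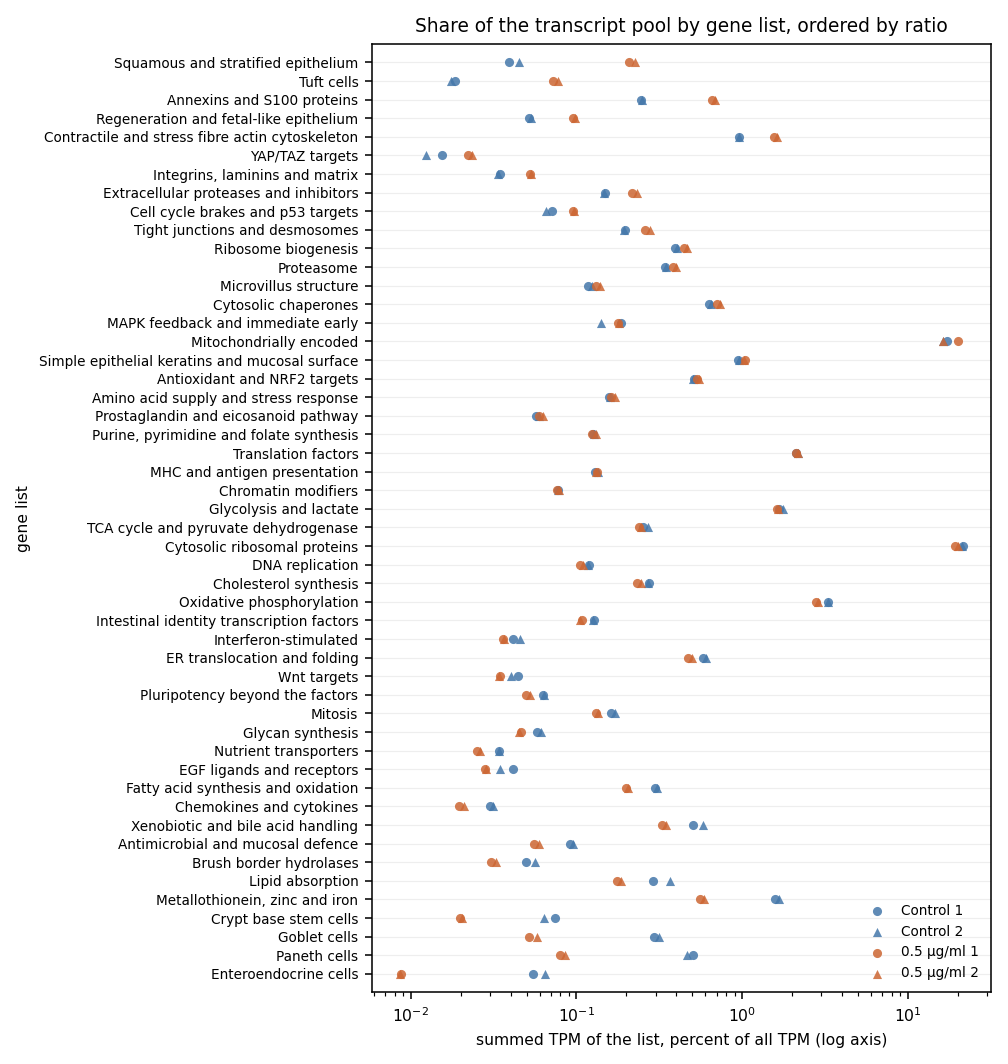
Summed TPM of each list as a percent of all TPM (x, log axis) in the 2 control (blue) and 2 treated (orange) libraries, for lists with at least 0.01% of TPM in control, ordered by the ratio of group means. Squamous, tuft, annexin and S100 genes stand at the top and enteroendocrine, Paneth, goblet and stem cell genes at the bottom. Blue and orange are apart in each of these, as they are in 45 of all 52 program lists.

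Leading transcription factors of gut identity were lower and still expressed. Of 35 tested 18 were lower and 14 higher. Hnf4a, the nuclear receptor that drives enterocyte genes, stood at 346 and 333 TPM in control and 153 and 148 TPM at 0.5 µg/ml (log2 fold change -1.22, SE 0.042, adjusted p = 5.86e-09). The intestinal master regulator Cdx2 fell from 97.6 and 102 to 30.9 and 30.4 TPM, its relative Cdx1 from 115 and 109 to 36.5 and 34.2 TPM, and the vitamin D receptor Vdr from 103 and 106 to 27.8 and 26.6 TPM. Each of these stayed above 25 TPM in both treated libraries. Factors that rose included Klf3 from 58.05 and 54.2 to 236 and 229 TPM, and the ETS factors Ehf (2.61-fold) and Elf3 (1.88-fold). At a lower level the epithelial regulator Ovol1 rose 2.76-fold.

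Of 28 genes of the pluripotency network beyond the induced factors 15 were tested, and 12 of these were higher, at low levels. A gene near 0 in control passes the low-count filter only through libraries where it is higher, so this count is in part set by the filter. L1td1, a stem cell RNA-binding protein, reached 27.1 and 33.1 TPM. Tfcp2l1, a factor of naive pluripotency that is also in the list of gut identity factors, rose 7.30-fold. Tdh, the threonine dehydrogenase of mouse embryonic stem cells, went from 0 in both controls to 8.58 and 8.96 TPM (at least 217-fold higher, against 3 counts per library). Nanog was not tested and stood at no more than 0.01 TPM. Of 15 gastric entries 10 were tested and 8 of these were higher, a count with the same limit. Sox2 itself holds the largest part of that list's share. The trefoil peptide Tff1 went from 0.5 and 0.55 to 102 and 104 TPM and Gkn1 (gastrokine) from 0.04 and 0.09 to 12.1 and 13.2 TPM, while Gkn3 and Vsig1 fell from 0.82 and 1.01 to 0.11 and 0.03 TPM and from 1.49 and 1.64 to 0.36 and 0.69 TPM. In the regeneration list 11 of 21 were higher. Ly6a, a surface marker of repairing epithelium, rose from 39.4 and 44.3 to 249.5 and 254 TPM, the cyclins Ccnd1 and Ccnd2 5.78-fold and 2.17-fold, and mesothelin (Msln) 2.61-fold. The 5 that fell were Ly6e, Clu, Ctsl, F3 and Igfbp3, with Ly6e from 163 and 158 to 52.6 and 47.99 TPM and Clu from 52.04 and 57.5 to 17.3 and 20.5 TPM.

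Genes of ribosome assembly mostly rose, by small steps, and those of translation did so less evenly. Of 36 ribosome biogenesis genes 30 were higher and the other 6 did not pass the test. The median log2 fold change was 0.30. Many of these genes are classical MYC targets, but a part of MYC in their rise was not tested. Npm1 (nucleophosmin) went from 1263 and 1293 to 1406 and 1412 TPM and the nucleolar protein gene Nop56 from 244 and 243 to 303 and 332 TPM. With upper quartile scaling the counts were 26 higher and 1 lower. Translation factors rose in 13 of 22 and fell in 2. With upper quartile scaling 10 were higher and 6 lower, and with limma on log2(TPM + 1) 8 and 4. Their summed share of TPM overlapped between the groups. Eif5a, an elongation factor, stood at 706 and 689 TPM in control and 1087 and 1091 TPM at 0.5 µg/ml. Larger steps, picked after their values were seen, were found for the initiation factor Eif2s2 from 121 and 125 to 453 and 455 TPM and for Eif6, which acts in subunit joining, from 202 and 197 to 486 and 533 TPM. Lsm4, a subunit of a small RNA-binding ring, was among the largest gains in TPM, from 129 and 113 to 738 and 781 TPM, with a smaller count fold of 3.62.

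The 79 ribosomal protein genes are the largest list by share, and most did not pass the test. Among them 7 were higher, 23 lower and 49 not past the test. Their share went from 21.4 ± 0.16% to 19.6 ± 0.47%. Rps27, of the small subunit, fell from 7375 and 6733 to 5765 and 5193 TPM, and Rpl28, of the large subunit, from 4453 and 4505 to 3848 and 3998 TPM. With upper quartile scaling 3 were higher and 45 lower. The higher count was 4 without control replicate 2 and without either treated library, and the lower count 15 without control replicate 1. Outside the lists, the growth-related protein gene Tpt1, the cytokine gene Mif and the acyl-CoA-binding protein gene Dbi were among the largest losses in TPM. They fell 1.18-fold, 1.72-fold and 1.57-fold. The chromatin remodeller gene Chd9 fell from 1005 and 1089 to 228 and 295 TPM, and 2.65-fold in counts, a smaller step.

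Chaperone genes of the cytosol mostly rose and folding genes of the endoplasmic reticulum mostly fell. In the chaperone list 19 of 21 were higher, with Hsp90aa1 from 345 and 334 to 636 and 735 TPM and the chaperonin subunit Cct2 from 311 and 313 to 368 and 388 TPM. The mitochondrial chaperonins Hspd1 and Hspe1 were the 2 that fell, 1.14-fold and 1.45-fold. In the endoplasmic reticulum 26 of 37 were lower. The disulphide isomerase P4hb fell from 473 and 519 to 359 and 362 TPM and the chaperone Hsp90b1 1.20-fold, while Calr (calreticulin) and Sec61g rose 1.21-fold and 1.29-fold. Of 31 proteasome genes 24 were higher, with a median log2 fold change of 0.30. Only Psmb6 was lower (adjusted p = 0.0295), a call lost without control replicate 1 (0.089) and without treated replicate 2 (0.0857). With upper quartile scaling 23 proteasome genes were higher and 2 lower.

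Genes of respiration were mostly lower and those of glycolysis went both ways. Of 75 nuclear oxidative phosphorylation genes 45 were lower and 9 higher, and the share went from 3.28 ± 0.016% to 2.81 ± 0.062%. The steps were small. Cox8a, a cytochrome oxidase subunit, went from 1257 and 1259 to 1018 and 1012 TPM, and Atp5d, an ATP synthase subunit and a rising exception, from 621 and 636 to 818 and 854 TPM. The 13 mitochondrially encoded genes gave no common direction. The ATP synthase subunit genes mt-Atp8 and mt-Atp6 were higher, the latter from 13866 and 12949 to 18119.5 and 14834 TPM, and the complex I subunit genes mt-Nd5 and mt-Nd6 lower, mt-Nd6 from 2398 and 2258 to 1986 and 1847 TPM. Each of these 4 calls was lost without at least 1 of the libraries. Without treated replicate 1 the 4 calls were all lower, and without treated replicate 2 the 3 calls were all higher. Without control replicate 1 the 2 calls were all higher, and without control replicate 2 there were 3 in each direction.

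Of 22 glycolytic genes 12 were higher and 7 lower, against 7 and 8 of 20 with limma on log2(TPM + 1). Ldha, which makes lactate, rose from 1828 and 1882 to 2229.7 and 2188 TPM. The aldolase Aldoa fell 1.22-fold. Ckmt1, a mitochondrial creatine kinase, was among the largest gains and went from 634 and 661 to 1249 and 1305 TPM. In the citric acid cycle 5 of 17 were higher and 5 lower, and 3 were higher without treated replicate 1. With upper quartile scaling 3 were higher and 9 lower, and with limma 3 and 8. Citrate synthase (Cs) rose 1.34-fold and Suclg2, a succinate-CoA ligase subunit, fell 1.56-fold. Purine, pyrimidine and folate synthesis genes were split, 9 higher and 7 lower of 24, and 8 and 11 with upper quartile scaling. The purine synthesis genes Paics and Atic rose 2.01-fold and 1.61-fold, and Shmt1 of folate metabolism fell 1.85-fold. Genes of amino acid supply and stress response were also split, 9 higher and 8 lower of 23. The amino acid carrier Slc1a5 and the serine synthesis enzyme Psat1 rose 2.23-fold and 2.03-fold, and the stress factor Atf5 fell 2.60-fold. Phgdh, another serine synthesis enzyme, was lower, a call that did not hold without control replicate 1 or treated replicate 1 (log2 fold changes -0.12 and -0.13).

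Fatty acid genes were lower in 16 of 25. The desaturase Scd2 fell from 629 and 654 to 432 and 452 TPM, its relative Scd1 1.43-fold and the uncoupling protein Ucp2 1.32-fold. Cholesterol synthesis genes were split, 9 higher and 11 lower of 25. Insig1, which holds the sterol sensor in the endoplasmic reticulum, fell from 226 and 221 to 151 and 164 TPM. Sqle, squalene epoxidase, rose from 97.1 and 101 to 119 and 121 TPM. Of 23 antioxidant genes 8 were higher and 8 lower, and with upper quartile scaling 8 and 12. Superoxide dismutase 1 (Sod1) rose from 663 and 632 to 877 and 936 TPM and the glutathione peroxidase Gpx2 1.61-fold, and the pentose phosphate enzyme Tkt fell 1.34-fold.

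Mitotic genes were mostly lower. Of 30 tested 19 were lower and 2 higher. Ube2c, a ubiquitin-conjugating enzyme of mitotic exit, went from 158 and 155 to 125 and 119 TPM and the kinase Cdk1 from 127 and 141 to 88.8 and 91.9 TPM. Anln (anillin, of the cleavage furrow) rose 2.43-fold and the kinase Aurka 1.14-fold. The call of Aurka (adjusted p = 0.00737) was lost without control replicate 1 (0.0605), treated replicate 1 (0.0613) or treated replicate 2 (0.0549). DNA replication genes gave 9 higher and 14 lower of 32, and 8 and 7 with DESeq2. The lower count was 7 without control replicate 1, 8 without treated replicate 1 and 9 without treated replicate 2, where 4 were higher.

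Among cell cycle brakes and p53 targets 11 were higher and 8 lower of 25, and 9 and 10 without control replicate 2. Cdkn1a (p21) stood at 88.2 and 97.5 TPM in control and 271 and 269 TPM at 0.5 µg/ml. The apoptosis gene Bax rose 1.63-fold, while the p53 targets Sesn1 and Gdf15 fell 2.10-fold and 2.82-fold and the brake Cdkn1b (p27) 1.88-fold. Chromatin modifier genes were near the background, 12 higher and 9 lower of 33. That balance turned with upper quartile scaling (10 and 14) and with limma (9 and 11). The Polycomb subunits Ezh2 and Suz12 fell 1.27-fold and 1.33-fold, and the deacetylase Hdac1 rose 1.46-fold.

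**Figure D5:**
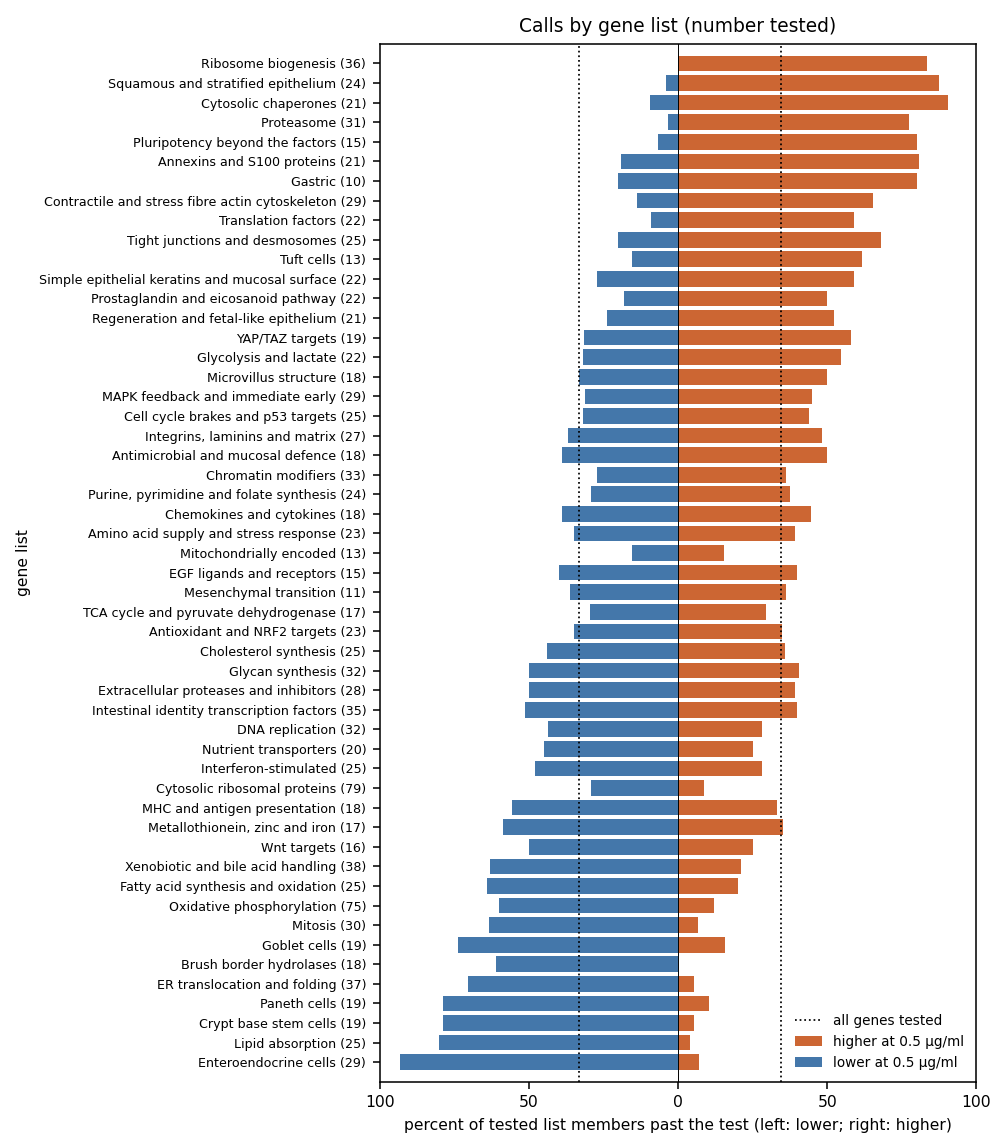
Percent of the tested members of each list that were higher (orange, right) or lower (blue, left) at 0.5 µg/ml, ordered by the difference, with the number tested in parentheses. The dotted lines mark all genes tested, 34.4% higher and 33.1% lower; ribosome biogenesis, squamous, chaperone and proteasome genes stand at the top and enteroendocrine and lipid absorption genes at the bottom.

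Of 15 EGF pathway genes 6 were higher and 6 lower. The ligand Areg fell from 139 and 114 to 69.5 and 73.9 TPM and the ligand Hbegf 1.62-fold. The receptor Egfr rose 1.77-fold and its partner Erbb3 from 38.3 and 34.6 to 51.6 and 50.8 TPM. The receptor inhibitors Lrig1 and Errfi1 fell 1.93-fold and 1.45-fold, the latter not called without treated replicate 2 (adjusted p = 0.0688). Among MAPK feedback and immediate early genes 13 were higher and 9 lower of 29. The phosphatase Dusp5 rose from 53.1 and 32.1 to 91.8 and 84.8 TPM and Phlda1 from 39.8 and 31.5 to 153 and 157 TPM, and the immediate early factor Fos fell from 204 and 134 to 88.6 and 79.00 TPM. The 2 controls differed from each other in Fos and Dusp5. Without control replicate 2 the counts were 12 and 13, with the median log2 fold change at -0.11 in place of 0.20. Without control replicate 1 they were 17 and 6.

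Wnt targets were lower in 8 of 16. Rnf43, a ligase that removes Wnt receptors, fell 2.08-fold, the repressor Zfp703 3.77-fold and the ion carrier Slc12a2 from 139 and 123 to 32.1 and 29.3 TPM. The 4 that rose were Ccnd1, Cd44, Ephb3 and Apcdd1. The call of Ephb3 was lost without control replicate 2 (adjusted p = 0.205), treated replicate 1 (0.0954) or treated replicate 2 (0.0937). YAP/TAZ targets were higher in 11 of 19 and lower in 6. The matricellular protein gene Ccn2 rose from 1.13 and 0.84 to 16.5 and 17.4 TPM and the ectonucleotidase Nt5e from 0.16 and 0.18 to 58.2 and 63.4 TPM, and tissue factor (F3) and Crim1 fell 2.38-fold and 3.38-fold. In the prostaglandin pathway 11 of 22 were higher and 4 lower. Beside Ptgs1, given above, the inducible cyclooxygenase Ptgs2 rose from 0.83 and 0.71 to 26.4 and 25.6 TPM and the prostaglandin carrier Slco2a1 from 0.75 and 0.88 to 15.7 and 16.7 TPM. The leukotriene enzyme Lta4h and the degrading enzyme Hpgd fell 1.82-fold and 1.83-fold. The list's median was 0.75, and -0.04 with limma on log2(TPM + 1), which leaves out its low genes.

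Genes of mucosal defence went both ways. Pigr, the receptor that carries IgA across the epithelium, stood at 476 and 494 TPM in control and 103 and 100.2 TPM at 0.5 µg/ml (log2 fold change -2.15, SE 0.052, adjusted p = 5.59e-10). The antibacterial lectin Reg3g fell 7.16-fold and the inflammasome gene Nlrp6 1.78-fold. The peptidoglycan-binding protein gene Pglyrp1 rose from 82.03 and 72.6 to 133 and 169.8 TPM, the pore former Gsdmd 2.68-fold and nitric oxide synthase 2 (Nos2) from 0.56 and 0.43 to 18.6 and 19.7 TPM. The gut-homing chemokine Ccl25 fell from 207 and 222 to 73.5 and 77.4 TPM. The neutrophil attractant Cxcl5 rose from 0.22 and 0.07 to 19.6 and 19.6 TPM, and Cxcl16 rose 4.26-fold. Counts were 9 higher and 7 lower of 18 for defence and 8 and 7 of 18 for chemokines, of which 5 were higher without treated replicate 2. The medians (0.35 and 0.28) turned to -0.45 and -0.49 with limma on log2(TPM + 1).

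Of 18 antigen presentation genes 6 were higher and 10 lower. The class I genes H2-D1 and B2m rose 1.52-fold and 1.29-fold and the peptide-loading gene Tapbp 2.55-fold, and the immunoproteasome subunit Psmb10 fell 1.75-fold. H2 genes are in part near-identical copies and so uncertain. Of 25 interferon-stimulated genes 7 were higher and 12 lower. The membrane tether Bst2 rose from 22.5 and 21.2 to 86.5 and 98.2 TPM and the antiviral Ifitm3 fell from 41.1 and 36.9 to 9.11 and 9.70 TPM. Mesenchymal transition genes were split 4 and 4 of 11. Fibronectin (Fn1) rose from 0.11 and 0.37 to 41.7 and 35.9 TPM and vimentin (Vim) fell from 2.96 and 3.60 to 0.2 and 0.2 TPM. Of 32 glycan synthesis genes 13 were higher and 16 lower. B3gnt3, which extends mucin-type chains, rose 3.51-fold and B4galnt1, a ganglioside enzyme, fell 1.57-fold.

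The libraries were epithelial on both sides. The 8 epithelial markers Epcam, Cdh1, Vil1, Krt8, Krt18, Krt19, Cldn7 and Cdx2 each stood above 30 TPM in all 4 libraries, with 4 higher and 4 lower. Of 8 fibroblast markers 2 were tested and rose, Dcn from 0 in both controls to 1.02 and 1.44 TPM and Col1a1 from 0.06 and 0.09 to 0.7 and 0.78 TPM. The 8 summed to 0.16 and 0.25 TPM in control and 2.21 and 2.73 TPM at 0.5 µg/ml, with Col3a1 at 0 in every library. The inducible cassette lies at the Col1a1 locus, and any link to these rises was not tested. Of 8 immune markers 3 were tested. Cd68, a lysosomal protein also made outside macrophages, rose from 2.95 and 2.26 to 14.3 and 14.2 TPM, Ptprc (CD45) from 0 to 0.11 and 0.07 TPM, and Itgam fell from 0.52 and 0.6 to 0.22 and 0.2 TPM. These 8 summed to 3.71 and 3.25 TPM in control and 14.8 and 14.7 TPM at 0.5 µg/ml. Of 6 endothelial markers Tek and Vwf were tested and rose, from 0.06 and 0.03 to 1.13 and 0.81 TPM and from 0.11 and 0.17 to 0.23 and 0.37 TPM, while Cdh5, Kdr and Emcn were at 0 throughout. The 6 summed to 0.23 and 0.37 TPM in control and 1.41 and 1.26 TPM at 0.5 µg/ml. The call of Vwf was lost without control replicate 1 (adjusted p = 0.162) and without treated replicate 2 (0.205). The 6 smooth muscle and glial markers summed to 1.03 and 0.74 TPM in control and 0.33 and 0.43 TPM at 0.5 µg/ml. Apart from Cd68, every marker of these other cell types stood below 2 TPM in all 4 libraries, and their part in the results above was not tested.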

How the data were processed

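Poly-A RNA of mouse intestinal organoids was read as 100 bp pairs from strand-specific MGI libraries, per the labels' protocols. Per the submitters' processing notes, reads went through FastQC and Trim Galore, the aligner STAR 2.7.3a and the counter RSEM 1.3.3. The notes list both GRCm39 and mm10. Which of these builds the tables use is not given, so coordinates are printed only for RefSeq promoter windows. The authors deposited RSEM expected counts (estimated counts, fractional for shared reads) and TPM, which carry no depth; RSEM divides shared reads by estimate. No source used here says whether counting used strand, so overlapping antisense genes cannot be told apart. Of 55416 identifiers, 52083 (94.0%) had a symbol.

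Expected counts were rounded, filtered by edgeR's filterByExpr, scaled by TMM (factors 0.964 to 1.04) and fitted in edgeR 4.0.16 (R 4.3.3) over all 6 libraries with a mean per group, 3 residual degrees of freedom and a two-sided quasi-likelihood test. The 16975 genes kept held 99.96% of the counts. SE was taken from the F statistic. With 2 against 2 libraries an exact test cannot go below p = 0.333, so p-values rest on the pooled spread. Replicates differed by more than sampling noise (chi-square per degree of freedom 7.57 to 8.60). A fold against no control counts is a bound against 3 counts, and with 1 to 3 counts the ratio has an exact 95% interval.

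The 52 program and 5 marker lists (1285 different genes tested) and the genes named were chosen with earlier results of these data known. Named were the 4 factors; among well expressed genes past the test, with groups apart and no Gm, Rik or pseudogene symbol, the 15 largest gains and 15 largest losses in TPM and the 12 highest and 12 lowest folds; up to 4 called members of each list per direction by TPM; members behind counts of 5 or fewer; and other-cell markers. A few are not reported here, and genes standing at or near 0 are named as such. Scripts were tested on simulated data. Alternatives were other scalings (upper quartile, RLE), DESeq2 1.42.0, limma 3.58.1 on TPM, other filters, a replicate block and leaving out each library.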

Additional observations from a re-analysis of the deposited data

How the results depend on the processing

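The counts of genes past the test kept within 1.5 times of those reported (5839 higher, 5626 lower; 975 and 726 among well expressed genes) with 4 libraries in the fit, upper quartile or RLE scaling, DESeq2, no filter on low counts, and leaving out any 1 library (5047 to 5604 higher, 5033 to 5442 lower; 853 to 940 and 664 to 757 well expressed). Exceptions were limma on log2(TPM + 1) and on log2(TPM + 0.1), with 3565 and 3563 higher; a threshold of 2-fold, with 2513 higher and 2086 lower, and 185 and 120 well expressed; and the abundance floor, with 2176 higher and 1701 lower at 20 TPM and 426 and 378 at 100 TPM, since the floor sets how many genes are counted. Limma tested fewer genes; any other cause was not tested. A fit with the replicate block called 5707 higher and 5455 lower (961 and 708 well expressed); same-numbered libraries did not deviate together (correlations -0.04, 0.08 and 0.01), so the numbers are not used as pairs. Of 403 named genes, up to 37 lost their call in a setting (without treated replicate 1, and likewise without treated replicate 2), and the log2 fold change of Acadm, an oxidation enzyme gene, went from 0.17 as reported to -0.0803 and -0.0812 under the 2 limma settings. Taking list shares over nuclear genes only, added after the data were seen, reversed none of the shares that were apart. With 2 libraries a side, the residual spread is pooled across groups; where 1 is left out, the lone library is assumed to vary like the others.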

Other observations

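In 7 of 2285 well expressed genes with at least 100 control counts the number of reads behind 1 TPM moved by more than 0.5 on the log2 scale from the median shift of -0.09, with the groups apart. TPM rose more, or fell less, than the counts in Klf4, Mylpf, Epb41l4b, Myc and Lsm4, and the reverse held in Tacc2 and Chd9. In Lsm4 the CPM (counts scaled to a common library total) per TPM were 0.523 and 0.539 in control and 0.311 and 0.302 at 0.5 µg/ml, and in Tacc2 1.99 and 1.86 against 3.26 and 3.06. In Mylpf the groups were barely apart, at 0.302 and 0.2246 in control and 0.2243 and 0.154 at 0.5 µg/ml. The 7 genes were picked by this measure after the data were seen.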
